A study of Mus musculus with 36 samples.

Results

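The comparison described here is high-fat diet against normal chow at zeitgeber time (ZT) 4, early in the light phase, in a dissected brain region enriched for the suprachiasmatic nucleus (SCN). Its members are 6 of the 36 RNA sequencing libraries of the study, chosen by their labels: 3 from mice on high-fat diet and 3 from mice on normal chow. All mice were adult C57BL/6J and had been on their diet for 10 weeks, and no transgene or drug is named for any group. The other 30 libraries were taken at ZT 0, 8, 12, 16 and 20, again 3 of each diet at each time. Nothing in the labels ties each library to its own animal, and p-values therefore measure only the spread between these samples, which may be technical. The libraries are written below as chow 1 to 3 and high-fat 1 to 3.

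The SCN is the master circadian pacemaker of mammals. Light reaching the retina sets its phase, and its neurons signal largely through GABA together with peptides such as vasopressin (Avp) and vasoactive intestinal peptide (Vip). Within each cell, CLOCK and BMAL1 drive the Per and Cry genes, whose proteins in turn repress CLOCK and BMAL1. High-fat feeding is known to spread feeding into the rest phase of mice and to bring immune and glial responses in parts of the hypothalamus, and blood vessels, glia and neurons all contribute RNA to a dissected piece of tissue.

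Transcripts of 2 peptides known from the SCN were present in all 6 libraries. Avp stood at 1719, 1641 and 2095 under chow and at 1336, 1361 and 4301 under high-fat diet, in FPKM (fragments per kilobase of transcript, scaled to library depth) rescaled so that each library sums to 1000000. Vip stood at 37.1, 15.7 and 57.9 under chow and at 42.4, 21.6 and 33.7 under high-fat diet. Both groups overlapped for both peptides. Avp is also among the 28 markers of other hypothalamic nuclei used here, so its level does not measure SCN content alone. Some libraries also carried transcripts of other tissues. The summed level of 18 meningeal and fibroblast markers was 974, 1822 and 1620 in the chow libraries and 1131, 2624 and 9247 in the high-fat libraries. Most of each sum came from Ptgds, whose values are given below. The mean log2 value of the list, in which each gene counts equally, was 3.26, 3.70 and 3.79 under chow and 3.44, 4.32 and 5.38 under high-fat diet. The sum of the liver list was 1501 in chow 1 against 54.4 to 314 in the other 5 libraries, and the pituitary list reached 730 in high-fat 3 against 282 to 442. High-fat 3 and chow 1 therefore stand apart, and values without each of them are given for the counts over all genes and for the immune, vascular, meningeal and ribosomal lists. Libraries of the same diet correlated across genes at a median Pearson r of 0.963 (6 pairs) and libraries of different diets at 0.969 (9 pairs). Reads per library are unknown. Relative depth, taken from the steps between low values, differed by up to 1.56-fold among the 6 libraries.

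No gene passed the threshold at ZT 4. Of 15173 genes tested by limma, 0 (0%) had an adjusted p under 0.05, and the smallest adjusted p was 1, so every gene of this comparison has an adjusted p of 1. At an unadjusted p under 0.05, 159 genes (1.05%) were higher and 68 (0.448%) were lower under high-fat diet, 227 (1.5%) in all. The median difference over all genes was 0.04 on the log2(value + 1) scale, on which all differences below are given, high-fat minus chow, and 63.9% of genes had a positive difference. That share holds for libraries rescaled to the same total. The medians of the pan-neuronal and ribosomal lists, given below, were lower under the other scalings. The median standard error (SE) was 0.15 and the median 95% confidence interval reached 0.32 to either side with 3 libraries a group. That interval is not adjusted for the number of genes, and a call at the adjusted threshold needs a larger difference. The 159 and 68 became 61 and 86 without high-fat 3, 379 and 117 without chow 1, 69 and 45 without chow 2, and 369 and 112 without high-fat 1. The direction that held more genes depended on high-fat 3: 70.0% of the 227 genes were higher with it and 41.5% without it.

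Since no gene was called, the genes named next are a description. They are the 12 higher and 12 lower with the smallest p among genes with a mean of at least 2 whose groups of 3 do not overlap, so the separation of their groups is part of how they were chosen. Over all genes tested, 700 (4.61%) were separated with high-fat diet above chow and 412 (2.72%) with it below.

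Among the 12 higher genes, several are known from immune responses. H2-T22, a nonclassical MHC class I gene (chr17:36037128-36042747, minus strand, GRCm38), stood at 6.17, 6.55 and 4.02 in the chow libraries and at 9.42, 9.57 and 14.7 in the high-fat libraries. Its means were 5.58 ± 1.37 and 11.2 ± 2.99 (SD, n = 3 each), a difference of 0.89 ± 0.26 (SE; limma, unadjusted p = 0.0019). The highest value came from high-fat 3, and the other 2 high-fat libraries were also above all 3 chow libraries. H2-T22 belongs to a family of near-identical copies among which reads can be split: H2-T10 differed by 0.15 ± 0.13 and H2-T9 by -0.14 ± 0.14, with overlapping groups, and both were looked up after the values were seen. Isg15, a ubiquitin-like protein induced by interferon (chr4:156199424-156200818, minus strand), stood at 4.05, 6.08 and 5.02 under chow and at 6.57, 8.58 and 12.4 under high-fat diet. The difference was 0.72 ± 0.25 (limma, unadjusted p = 0.0084), again with the top value in high-fat 3. Igtp, an immunity-related GTPase (chr11:58199556-58207591, plus strand), stood at 5.15, 5.96 and 6.11 under chow and at 6.48, 9.16 and 10.3 under high-fat diet, and its model overlaps that of Irgm2 on the same strand. Ctsc, a lysosomal protease that activates serine proteases of immune cells, differed by 0.57 ± 0.18.

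The higher genes also include 3 known from vessels. Kdr, the main endothelial receptor for VEGF (chr5:75932827-75978458, minus strand), stood at 4.42, 3.39 and 2.63 under chow and at 5.4, 6.62 and 5.83 under high-fat diet. The difference was 0.65 ± 0.22 (limma, unadjusted p = 0.0074), and here the top value was in high-fat 2. Abcg2, an efflux transporter of the blood-brain barrier, differed by 0.49 ± 0.16 and Mmrn2, an endothelial matrix protein, by 0.48 ± 0.16. Grem1, a secreted antagonist of bone morphogenetic proteins (chr2:113746164-113758646, minus strand), stood at 1.51, 1.05 and 1.5 under chow and at 2.96, 2.68 and 3.12 under high-fat diet. Its 3 high-fat values lay close together, and the difference was 0.74 ± 0.22 (limma, unadjusted p = 0.0023). Tgfbr2, a receptor for TGF-beta, differed by 0.43 ± 0.16, Xrcc4, a factor of DNA end joining, by 0.29 ± 0.10, and Car13, a carbonic anhydrase, by 0.99 ± 0.33, the last with 6.10 in high-fat 3 and 0.749 to 2.16 in the other 5 libraries.

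Among the 12 lower genes, Fabp7 had the smallest p. Fabp7 is the brain fatty acid binding protein of astrocytes and radial glia (chr10:57784881-57788450, plus strand). It stood at 326, 325 and 304 under chow and at 234, 198 and 200 under high-fat diet, with means of 318 ± 12.6 and 211 ± 20.1 (SD, n = 3 each). The difference was -0.60 ± 0.17 (limma, unadjusted p = 0.0014). All 3 high-fat libraries lay below all 3 chow libraries. Of the 16 astrocyte markers tested, which do not include Fabp7, 8 differences were positive and 8 negative, with a median of -0.01. In bulk tissue, fewer cells of a type and less RNA per cell cannot be told apart.

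Gast, the precursor of gastrin (chr11:100334407-100336996, plus strand), stood at 10.4, 12.6 and 8.30 under chow and at 6.34, 4.04 and 3.75 under high-fat diet, a difference of -1.01 ± 0.36 (limma, unadjusted p = 0.0094). Jund, an AP-1 transcription factor (chr8:70698949-70700616, plus strand), stood at 107, 102 and 105 under chow and at 88.6, 85.3 and 78.9 under high-fat diet, a difference of -0.31 ± 0.11 (limma, unadjusted p = 0.010). Both genes were lower in each high-fat library than in any chow library. Gdf1 had the lowest difference of these 12 genes on the log2 scale, -3.31 ± 0.99, with 25.1, 18.3 and 17.7 under chow and 0.0788, 4.80 and 0.545 under high-fat diet. It encodes a growth factor of the TGF-beta family, and its model (chr8:70329817-70331587, plus strand) lies wholly within that of Cers1 on the same strand, so its values are uncertain. Cers1, a ceramide synthase of neurons, stood at 61.8 to 74.9 under chow and at 69.9 to 78.8 under high-fat diet. The remaining 8 lower genes, Ropn1l, Ccl25, Tmem97, Ino80e, Kxd1, Pdap1, Nabp2 and Acbd6, differed by -0.60 to -0.18.

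**Figure D1:**
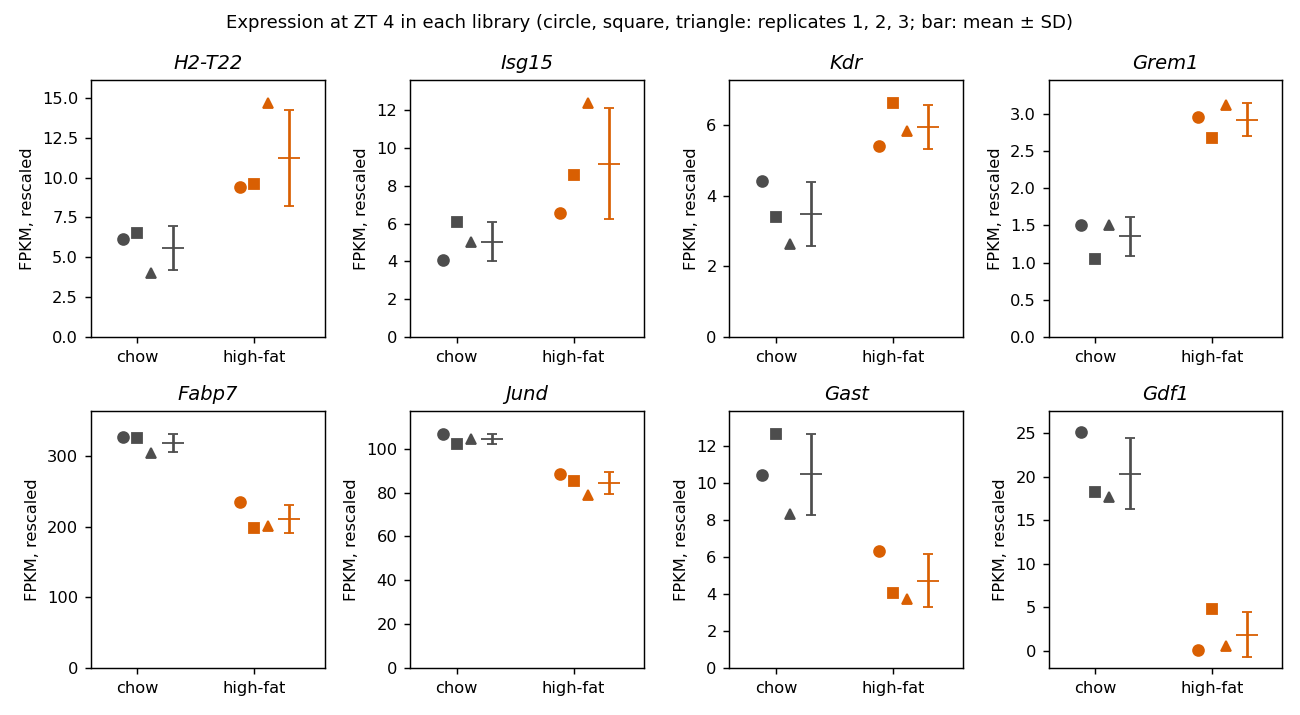
Rescaled FPKM (linear axis) of 8 of the 24 named genes in each library at ZT 4, 3 chow and 3 high-fat, with the mean and SD of each group at the right of its points. The groups do not overlap in any panel, which is how these genes were chosen; high-fat 3 (triangle) is the highest point for H2-T22, Isg15 and Grem1 and not for Kdr.

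The interferon and MHC class I list stood above the background. Interferons induce many of these genes through the interferon-stimulated response element (ISRE) in their promoters, and their products include guanylate-binding proteins, antiviral effectors and the antigen presentation machinery. Of 27 members tested, 26 had a positive difference, with a median of 0.29 against 0.04 over all genes. By limma, 0 passed the adjusted threshold, and 6 (Isg15, Gbp2, Irf7, Igtp, Gbp3 and Ifit2) were higher at an unadjusted p under 0.05, against 1.05% of all genes. In 12 members the high-fat libraries all stood above the chow libraries, against 4.61% of all genes. Gbp2, a guanylate-binding protein, stood at 3.02, 3.43 and 3.52 under chow and at 3.63, 6.55 and 7.92 under high-fat diet. Irf7, a transcription factor that amplifies the interferon response, stood at 2.29, 2.11 and 2.64 under chow and at 2.69, 4.51 and 5.64 under high-fat diet. In both genes high-fat 1 was barely above the highest chow library and high-fat 3 was highest. Ifit2 and Gbp3 differed by 0.34 ± 0.14 and 0.47 ± 0.19. The MHC class I heavy chain H2-K1 differed by 0.05 ± 0.19, with overlapping groups, and Irf8, a factor of the myeloid lineage, had the lowest difference of the list, -0.04 ± 0.12.

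Sequences of the regions around the start of 3 of these genes show the element the list is known for. Shown are the windows from 250 bases before to 50 after the RefSeq start on GRCm38.p6, each 5′ to 3′ on the gene's own strand, with matches to the ISRE core (GAAA, any 2 bases, GAAA; searched on both strands) in capitals. Isg15 lies on the minus strand at chr4:156200769-156201068 and has 3 overlapping matches, Igtp on the plus strand at chr11:58199306-58199605 has 1, and Gbp2 on the plus strand at chr3:142620413-142620712 has 1 on the opposite strand.
Isg15: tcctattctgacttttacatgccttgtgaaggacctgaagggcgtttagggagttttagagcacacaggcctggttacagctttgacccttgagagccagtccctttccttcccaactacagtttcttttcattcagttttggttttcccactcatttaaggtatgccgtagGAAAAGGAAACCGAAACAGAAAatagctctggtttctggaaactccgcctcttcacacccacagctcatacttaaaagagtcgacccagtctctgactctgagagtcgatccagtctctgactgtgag
Igtp: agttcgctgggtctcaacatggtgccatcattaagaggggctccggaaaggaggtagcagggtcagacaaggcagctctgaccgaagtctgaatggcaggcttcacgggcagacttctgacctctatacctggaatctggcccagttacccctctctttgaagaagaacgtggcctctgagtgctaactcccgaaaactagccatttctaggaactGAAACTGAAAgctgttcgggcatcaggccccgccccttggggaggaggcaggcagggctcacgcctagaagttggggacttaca
Gbp2: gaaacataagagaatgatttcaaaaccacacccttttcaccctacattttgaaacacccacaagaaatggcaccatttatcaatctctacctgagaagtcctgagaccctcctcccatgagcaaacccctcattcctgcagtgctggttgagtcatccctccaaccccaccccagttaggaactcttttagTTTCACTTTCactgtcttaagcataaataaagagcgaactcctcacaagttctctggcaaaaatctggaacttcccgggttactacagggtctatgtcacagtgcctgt
This core was in 14 of the 31 windows (45.2%) found for 25 of the 30 list genes and in 3.44% of all 32851 windows of the same length. The STAT site TTCNNNGAA was in 8 of the 31 (25.8%) and in 8.30% of all windows. A match is a string of letters in a window and shows no binding, and the ISRE core was added to the search after the values were seen. The list was drawn up from known interferon genes, so its share of windows with the core says nothing about the diet. Of the 12 higher genes, 9 of which had a window, 3 had the ISRE core (H2-T22, Igtp and Isg15). Of the 12 lower genes, 11 of which had a window, 2 had it.

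The level of the interferon list differed between the high-fat libraries. Its mean log2 value was 3.31, 3.37 and 3.40 in the chow libraries and 3.43, 3.68 and 3.96 in the high-fat libraries, lowest in high-fat 1 and highest in high-fat 3, in the same order as the meningeal sums given above. Without high-fat 3 the number of list genes at an unadjusted p under 0.05 went from 6 to 0 and the median from 0.29 to 0.17; without chow 1 they were 6 and 0.27, and without high-fat 1 they were 12 and 0.39. With the scores of 5 tissue lists (blood, meninges, choroid plexus, other hypothalamic nuclei, and thalamus with cortex and striatum) as covariates they were 4 and 0.12. The part of these other tissues in the result was not tested beyond that.

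Endothelial and mural genes, which build and line brain vessels, had a median of 0.40 over the 22 tested, and 20 were positive. Of these, 6 were higher at an unadjusted p under 0.05 (Kdr, Abcb1a, Cdh5, Pecam1, Ly6c1 and Ly6a), against 1.05% of all genes, and 8 were separated, against 4.61%. Pecam1, an adhesion molecule between endothelial cells, stood at 12.1, 9.98 and 10.4 under chow and at 14.8, 17.9 and 15.5 under high-fat diet. Abcb1a, the P-glycoprotein efflux pump of the blood-brain barrier, stood at 10.4, 6.92 and 6.67 under chow and at 11.8, 13.3 and 14.3 under high-fat diet. Cdh5, the cadherin of endothelial junctions, stood at 5.69, 4.46 and 5.49 under chow and at 6.90, 8.64 and 9.03 under high-fat diet. For these 3 genes every high-fat library was above every chow library, whereas Cldn5, a tight junction protein of the same cells, stood at 45.8, 58.5 and 47.6 and at 42.2, 59.8 and 55.0 with overlapping groups. The smooth muscle genes Acta2 and Myh11 differed by 0.98 ± 0.49 and 0.96 ± 0.49, and Kcnj8, a pericyte potassium channel, by -0.17 ± 0.11. The list's mean log2 value was 3.84, 3.66 and 3.73 under chow and 3.96, 4.26 and 4.25 under high-fat diet, without overlap. Without high-fat 3 its median was 0.36 with 3 genes at an unadjusted p under 0.05, and without chow 1 it was 0.47 with 7 genes. The number was 3 without chow 2, 2 without chow 3 or high-fat 2, and 11 without high-fat 1, and with the 5 tissue scores the median was 0.20 with 3 genes.

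All 18 meningeal and fibroblast markers had a positive difference, with a median of 0.86, the highest of the 33 lists tested, yet in none were the groups separated. Ptgds, the prostaglandin D synthase of the leptomeninges, stood at 790, 1588 and 1364 under chow and at 928, 2264 and 8423 under high-fat diet. Dcn, a small matrix proteoglycan, stood at 14.1, 18.2 and 20.0 under chow and at 17.0, 29.7 and 69.9 under high-fat diet, and Lum, a related proteoglycan, differed by 0.89 ± 0.35. High-fat 1 was within the chow range for Ptgds and Dcn, and high-fat 3 was the highest library for both. The list's median was 0.28 without high-fat 3, 0.66 without chow 1, 1.30 without high-fat 1 and 0.02 with the 5 tissue scores, one of which is this list.

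**Figure D2:**
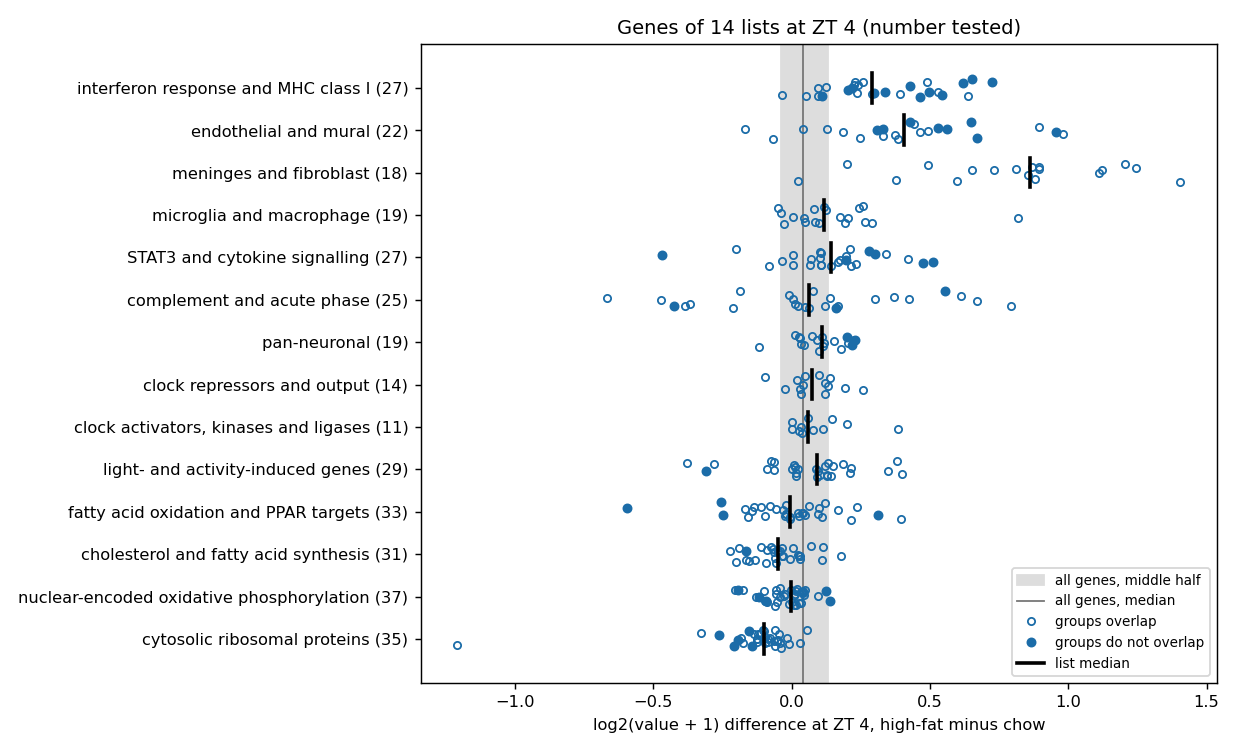
Difference at ZT 4 (log2 scale) of each tested gene in 14 lists, with the list median (bar) and the middle of all genes (grey band: from the first to the third quartile). Interferon, endothelial and meningeal genes sit to the right of the median of all genes, filled points (groups that do not overlap) occur in the first 2 of these lists, and ribosomal protein genes sit to the left.

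**Figure D3:**
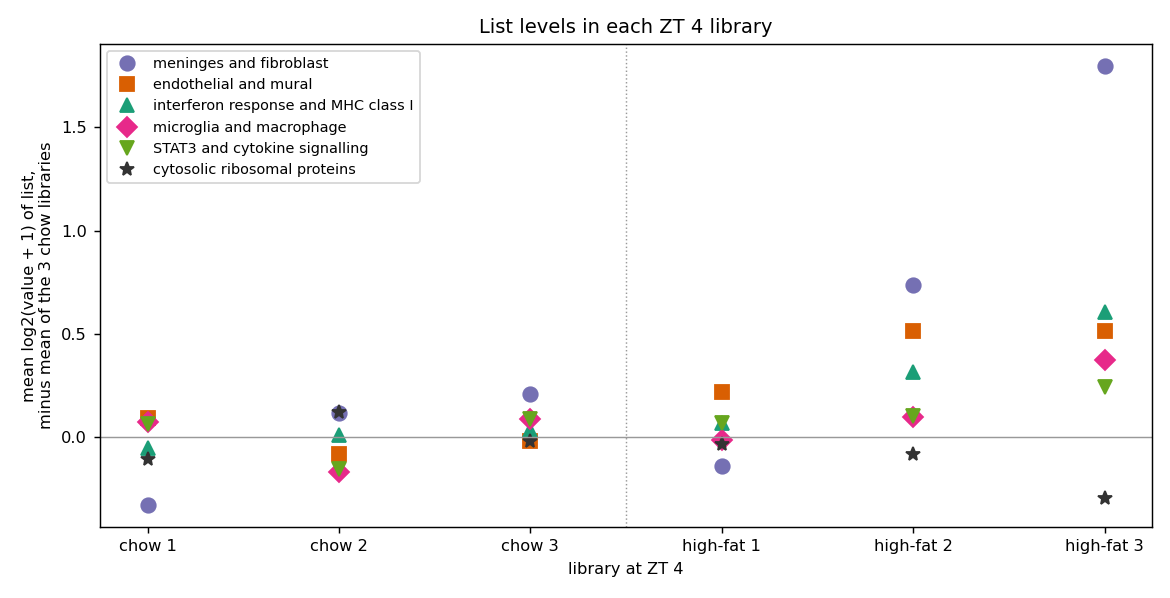
Mean log2 value of 6 lists in each ZT 4 library, less the mean of the 3 chow libraries. High-fat 3 has the highest point of the meningeal, interferon, microglial and STAT3 lists and the lowest of the ribosomal proteins. High-fat 1 lies above all 3 chow libraries for the endothelial list, slightly above them for the interferon list, and within their range for the other lists.

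Genes of cytokine signalling through STAT3, the pathway of interleukin-6 and leptin, had a median of 0.14 over 27 tested, with 3 higher (1.05% of all genes) and 0 lower (0.448% of all genes) at an unadjusted p under 0.05. The median and the number of higher genes were 0.12 and 1 without high-fat 3, 0.19 and 2 without chow 1, 0.07 and 1 without chow 2, and 0.19 and 6 without high-fat 1. Osmr, the oncostatin M receptor, stood at 0.9995, 1.04 and 1.03 under chow and at 1.75, 1.65 and 2.28 under high-fat diet, a difference of 0.51 ± 0.15 (limma, unadjusted p = 0.0026). Socs3, the feedback inhibitor of STAT3, stood at 1.58, 1.15 and 2.01 under chow and at 1.98, 2.02 and 3.46 under high-fat diet. The groups overlapped for Socs3, by chow 3, and did not for Osmr. The third was Stat6, which transmits interleukin-4 signals (0.48 ± 0.20), and Stat3 itself differed by 0.17 ± 0.09. Socs1, an inhibitor of interferon signalling, had the lowest difference of the list, -0.47 ± 0.25, with 3.02, 2.81 and 3.71 under chow against 2.27, 1.34 and 2.55 under high-fat diet. The 25 complement and acute phase genes had a median of 0.06, which was -0.0036 without high-fat 3, 0.20 without chow 1, -0.11 with the 5 tissue scores and -0.046 with array weights. Of 19 microglial and macrophage markers, 1 was higher at an unadjusted p under 0.05, against 1.05% of all genes. It was Lyz2, a lysozyme of macrophages, at 0.82 ± 0.35 and with 58.5 in high-fat 3. The list's median was 0.12. The microglial median was 0.031 without high-fat 3, 0.20 without chow 1, 0.029 without chow 2, 0.20 without high-fat 1 and -0.069 with the tissue scores, and the number of such genes was 0 in each of these except without high-fat 1, where it was 1. The microglial marker Aif1 differed by -0.05 ± 0.19.

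The clock itself gave small differences. Of 14 clock repressors and output genes, 0 reached an unadjusted p under 0.05 by limma and 0 were separated, against 1.5% of all genes at that p and 4.61% and 2.72% separated upward and downward. Per1, a light-inducible repressor, stood at 23.7, 22.7 and 29.2 under chow and at 26.6, 27.0 and 27.0 under high-fat diet. Per2, its paralog, stood at 11.8, 7.93 and 13.5 under chow and at 12.0, 10.9 and 10.5 under high-fat diet. Nr1d1, the REV-ERB alpha repressor of Bmal1, stood at 100, 92.8 and 105 under chow and at 111, 97.4 and 96.4 under high-fat diet. For all 3 the groups overlapped. Their 95% confidence intervals ran from -0.32 to 0.51, from -0.38 to 0.44 and from -0.16 to 0.22. Dbp, a PAR-domain output factor that is highest by day, differed by 0.13 ± 0.15, Cry1 by -0.02 ± 0.09, and Hlf, another PAR factor, had the largest difference of the list at 0.26 ± 0.20. The 11 clock activators, kinases and ligases had a median of 0.06 and the 26 SCN peptides, receptors and transcription factors of 0.04, each with 0 genes at an unadjusted p under 0.05. Of 29 genes induced by light or activity, Jund alone was at an unadjusted p under 0.05, against 1.5% of all genes. Npas4, an activity-dependent transcription factor, differed by -0.38 ± 0.31.

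Medians of the metabolic lists ran from -0.064 to 0.035, against 0.04 over all genes. Fatty acid oxidation and PPAR targets had a median of -0.01 over 33 genes, with Fabp7 alone at an unadjusted p under 0.05, against 1.5% of all genes. Cholesterol and fatty acid synthesis had a median of -0.05 over 31 genes, glycolysis of 0.01 over 22 and the TCA cycle of 0.04 over 21, each with 0 genes at an unadjusted p under 0.05. NAD, serine and one-carbon metabolism had a median of -0.064 over 31, also with 0 such genes. In the order given, 15 of 33, 9 of 31, 14 of 22, 18 of 21 and 11 of 31 differences were positive, against 63.9% of all genes. The medians of glycolysis and the TCA cycle changed sign with the values as deposited and with median-of-ratios scaling. Of 37 nuclear genes of oxidative phosphorylation, 18 differences were positive and 19 negative, with a median of -0.0036. In 2 the groups were separated upward and in 3 downward, against 4.61% and 2.72% of all genes. At an unadjusted p under 0.05, 2 were higher, against 1.05% of all genes, and 0 lower, against 0.448%. Ndufs1, a subunit of complex I, stood at 146, 136 and 137 under chow and at 152, 152 and 157 under high-fat diet, and Uqcrc2, a subunit of complex III, at 298, 284 and 276 and at 311, 303 and 321. Both differences were small, 0.14 ± 0.06 and 0.12 ± 0.06, although the groups were separated. Of 35 cytosolic ribosomal protein genes 2 had a positive difference, against 63.9% of all genes, and 33 a negative one, with a median of -0.10. In 5 the groups were separated downward, against 2.72% of all genes, and 0 reached an unadjusted p under 0.05. Their median was -0.066 without high-fat 3, -0.12 without chow 1, -0.064 without chow 2 and -0.15 without high-fat 1. Pan-neuronal genes ran the other way, with 18 of 19 positive, against 63.9% of all genes, and a median of 0.11. Of these genes 0 reached an unadjusted p under 0.05 and 3 were separated upward, against 4.61% of all genes. The list's mean log2 values overlapped between the diets, and the neuronal marker Rbfox3 differed by -0.12 ± 0.18. The pan-neuronal median was 0.068 with the values as deposited and 0.062 with median-of-ratios scaling. For the ribosomal list these medians were -0.14 and -0.15. Nefh, a neurofilament, stood at 51.9, 49.8 and 51.1 under chow and at 57.4, 60.9 and 59.9 under high-fat diet, and Gad1, which makes GABA, at 403, 400 and 385 and at 486, 471 and 411.

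The other 5 time points are separate libraries, although 1 estimate of each gene's spread is shared with ZT 4. Over their 30 libraries limma called 2 of the 15173 genes (0.0132%), with 380 (2.5%) at an unadjusted p under 0.05. The first was Rbm3, a cold-inducible RNA-binding protein, which fell by 0.50 (limma, adjusted p = 2.3e-05). At ZT 4 it stood at 133, 155 and 160 under chow and at 99.0, 134 and 146 under high-fat diet, a difference of -0.25 ± 0.12 with overlapping groups. The second was complement C4b, which rose by 0.63 ± 0.10 (limma, adjusted p = 0.0093) and differed by 0.37 ± 0.23 at ZT 4, and which can share reads with its near-identical copy C4a. Socs3 differed by 0.28 ± 0.07 and Stat3 by 0.20 ± 0.04 at the other times, positive at 5 of 5 of them. Fabp7 differed by -0.23 ± 0.07 there (limma, unadjusted p = 0.0048), negative at 3 of 5 times. It differed by -0.56, -0.61 and -0.48 at ZT 0, 8 and 12 and by 0.36 and 0.15 at ZT 16 and 20. Pdap1, a growth factor-associated phosphoprotein, differed by -0.09 ± 0.03 over the other times (limma, unadjusted p = 0.0030), negative at 5 of 5.

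Of the 159 genes that were higher at ZT 4 at an unadjusted p under 0.05, 120 (75.5%) were positive over the other time points, against 43.5% of all genes, and 7 (4.40%) were at an unadjusted p under 0.05 there in the same direction, against 0.699%. Of the 68 lower genes, 45 (66.2%) were negative, against 56.5%, and 5 (7.35%) were at that level, against 1.81%. The sizes were smaller there, with a median of 0.06 against 0.49 for the higher genes and of -0.03 against -0.28 for the lower, and the genes were selected by their p at ZT 4. Both p-values of a gene rest on the same estimate of its spread. Selection by a small p at ZT 4 therefore favours genes with a small SE at the other times too. The shares at an unadjusted p under 0.05 there are thus not independent of the selection. The medians of the interferon, endothelial and meningeal lists were 0.09, 0.09 and 0.13 over the other times. The pan-neuronal and ribosomal lists had the opposite sign there from ZT 4. Their medians were -0.040 and 0.021, with 2 of 19 and 24 of 35 genes positive, against 43.5% of all genes.

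Whether the diet effect at ZT 4 differed from that at the other times was tested directly. By limma 0 of 15173 genes (0%) passed, with a smallest adjusted p of 0.99987, and 170 (1.12%) had an unadjusted p under 0.05, 120 (0.791%) with a positive and 50 (0.33%) with a negative difference. The smallest p with a positive difference belonged to Grem1, at 0.74 ± 0.22 at ZT 4 and -0.07 ± 0.10 elsewhere (limma, unadjusted p = 0.0023), followed by H2-T22 (0.89 and 0.05), Atp5s, a factor of ATP synthase (0.18 and -0.11), and Rpp14, a subunit of ribonuclease P (0.10 and -0.09). Those with a negative difference included Gast (-1.01 and 0.07), Glod5 (-0.52 and 0.09) and Ino80e, a subunit of the INO80 chromatin remodeller (-0.20 and 0.01). The rule also named the miRNA genes Mir719, Mir6357 and Mir8103, whose values lay at or near 0 in some of the 6 libraries and reached 802, 247 and 232 in others, and short genes like these are poorly measured in FPKM.

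**Figure D4:**
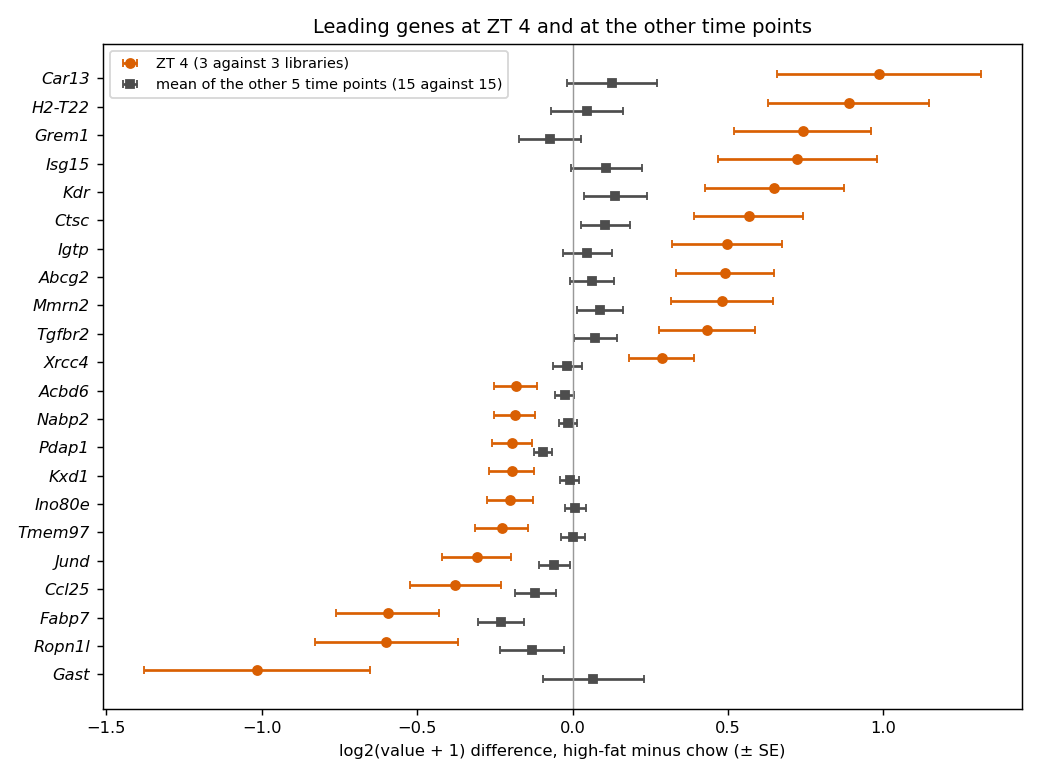
Difference between diets (log2 scale, ± SE) of 22 of the 24 named genes (Gdf1, at -3.31, is left out for scale, and 1 gene is not reported here) at ZT 4 and as the mean of the other 5 time points. The ZT 4 values lie away from 0 because the genes were chosen by them. The means of the other times, such as -0.23 for Fabp7 and 0.05 for H2-T22, lie nearer to 0. For Fabp7 that mean joins -0.56, -0.61 and -0.48 at ZT 0, 8 and 12 with 0.36 and 0.15 at ZT 16 and 20.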

How the data were processed

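RNA was extracted from the frozen SCN-enriched region with a Qiagen micro kit and made into stranded Illumina mRNA libraries, per the labels' protocols. Trimmomatic, TopHat and Cufflinks were used by the authors, with builds mm10 and GRCm38, per the submitters' processing notes, which give no versions. The deposited values are taken as FPKM, inferred from the values and from Cufflinks; the unit is not given in the file headers. The diets stand in separate tables, and diet cannot be told apart from any difference between the making of these tables.

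Values of each library were rescaled to sum to 1000000 and taken as log2(value + 1), which understates changes of low genes. The 15173 of 24883 rows with a mean of at least 1 were tested in limma 3.58.1 (R 4.3.3) with a mean-variance trend over 12 group means of 36 libraries (24 residual degrees of freedom), two-sided, with Benjamini-Hochberg adjustment over all rows. No interval for counting error was computed, since depth in reads is unknown. The test was checked on simulated data.

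Members, the 33 tested gene lists and some named genes were chosen with earlier results of these data known. Named were the 12 genes each way with the smallest p at ZT 4 (1 row, mean of at least 2, groups separated, no predicted gene), the extremes of each list, 5 each way for the difference from other times, the clock repressors, and 10 genes from earlier results. Of these 112, not all are printed, and some are not reported here; the closing section counts all 112. Genes of a list printed for their unadjusted p, Cldn5, H2-K1, Nefh, Gad1, Myh11, Ptgds, Dcn and Lum among them, and other members printed as examples, were chosen after their values were seen. Coordinates are from GENCODE M21 and promoter sequences from RefSeq, GRCm38.p6.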

Additional observations from a re-analysis of the deposited data

How the results depend on the processing

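At ZT 4 limma called 0 genes, and also 0 with the replicate number as a block over 36 libraries, each scaling, pseudocount and filter, the robust fit, the 5 tissue scores and each library left out. The 6 libraries alone gave 1 (Mir6992), and the replicate block on them gave 2. Weights per library in limma (array weights), whose estimation did not converge (weights of 0.0274 to 300), gave 776, with 720 over the other times and 800 for the difference; gene-by-gene weights, added after the data were seen like the 2 settings that drop liver-rich or striatal libraries, gave 6 and 43 (0 for the difference). The cause of these calls was not tested. Over the other times 2 genes were called as reported, and 1 with the block and 1 with the tissue scores, and without the striatal pair the difference gave 1. Whether the replicate numbers pair the samples is unclear. For this, the mean of its diet was subtracted from each gene's log2 values, and the remaining deviations were correlated across genes. The deviations of same-numbered chow and high-fat libraries correlated at 0.20, -0.057 and 0.22. The highest correlation of each chow library's deviations with those of another number was 0.07, 0.19 and -0.039, so 1 of 3 correlated better with another number.

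Counts at an unadjusted p under 0.05 moved more. As reported they were 159 higher and 68 lower at ZT 4, 106 and 274 at the other times, and 120 and 50 for the difference. Under the 6 libraries alone they were 192 higher and 135 lower at ZT 4. Under the replicate block on the 6 libraries they were 344 higher and 134 lower at ZT 4. The replicate block over 36 libraries gave 241 and 91, 111 and 306 at the other times, and 206 and 55 for the difference. No filter gave 354 and 216, 215 and 398 at the other times, and 283 and 151 for the difference. A mean of at least 5 gave 77 and 53, 64 and 245 at the other times, and 84 and 34 for the difference. The values as deposited gave 145 and 42, 80 and 326 at the other times, and 156 and 21 for the difference. Median-of-ratios size factors gave 153 and 88, 148 and 306 at the other times, and 108 and 68 for the difference. Array weights gave 1554 and 1677, 850 and 2337 at the other times, and 1912 and 1453 for the difference. Gene-by-gene weights gave 598 and 696, 379 and 1346 at the other times, and 926 and 667 for the difference. The 5 tissue scores gave 206 and 181, 541 and 272 at the other times, and 132 and 121 for the difference. Leaving out the 3 liver-rich libraries gave 419 and 144, 66 and 404 at the other times, and 473 and 78 for the difference. Leaving out 1 library gave 61 to 379 higher and 45 to 117 lower at ZT 4, 98 to 114 and 256 to 279 at the other times, and 39 to 351 and 40 to 104 for the difference. Of 33 list medians, 24 were positive. Over all lists and settings 30 medians moved by more than their spread, and 146 counts of higher and 101 of lower list genes by over 1.5 times.

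Of 2320 values of the 112 named genes over 21 alternatives, 88 (33 genes) changed sign; the 24 leading genes had 0, but separated groups were part of how they were chosen. Under a pseudocount of 5 the difference was Fbxl21 -0.0044. Under the values as deposited the differences were Cry2 -0.019, Fbxl21 -0.032, Nr1d1 -0.0059, Omd -0.013 and Per2 -0.0058. Under median-of-ratios size factors the differences were Bhlhe41 -0.0040, Cry2 -0.025, Fbxl21 -0.040, Nr1d1 -0.012, Omd -0.020 and Per2 -0.0097. Under array weights the differences were Apoc3 0.36, Bhlhe41 -0.033, C4b -0.11, Cry2 -0.013, Fbxl21 -0.19, Gh -1.30, Gjb1 0.0048, Gjb6 -0.11, Gnmt 0.022, Nr1d1 -0.072, Nr5a1 -1.11, Per1 -0.050, Per2 -0.21, Per3 -0.054, Rora -0.080, Rps27 0.65, Serpina3n -0.048, Stat3 -0.051 and Ugt8a -0.0019. Under the 5 tissue scores the differences were Bmp4 -0.095, Calb2 0.16, Cry2 -0.0062, Crym -0.34, Mup3 -0.79, Omd -0.25 and Rps29 -0.078. Without the 3 liver-rich libraries the differences were Apoc3 0.21, C3 0.099, Gnmt 0.27, Omd -0.090 and Rps29 -0.0050. Under gene-by-gene weights the differences were Apoc3 0.013, Bhlhe41 -0.017, Cry2 -0.00098, Fbxl21 -0.17, Gh -0.58, Gjb6 -0.046, Nr1d1 -0.050, Nr5a1 -0.65, Per1 -0.0075, Per2 -0.16, Rora -0.0043, Rps27 0.42 and Stat3 -0.00037. With 1 library left out, the lowest and highest values of the genes that changed sign were Aif1 -0.12 to 0.034, Apoc3 -1.23 to 0.21, Bhlhe41 -0.044 to 0.093, C3 -1.28 to 0.099, Calb2 -0.24 to 0.068, Clic6 -0.56 to 0.21, Cry1 -0.10 to 0.054, Cry2 -0.00038 to 0.059, Fbxl21 -0.28 to 0.18, Gjb1 -0.28 to 0.059, Gnmt -1.61 to 0.27, Hcrt -2.72 to 0.34, Irf8 -0.14 to 0.022, Lhb -0.41 to 0.29, Mup3 -0.54 to 2.49, Nr1d1 -0.032 to 0.073, Nr5a1 -0.38 to 1.31, Omd -0.096 to 0.17, Pcx -0.18 to 0.042, Per2 -0.17 to 0.18, Rps27 -2.98 to 0.47, Rps29 -0.0050 to 0.11 and Ugt8a -0.046 to 0.39.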

Other observations

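Markers of other hypothalamic nuclei, cortex and pituitary varied widely among the 6 libraries. The neuropeptide Hcrt, which marks the lateral hypothalamus, stood at 94.5, 188 and 402 under chow and at 3.07, 211 and 281 under high-fat diet. Nr5a1, a factor of the ventromedial nucleus, stood at 0.413, 0.374 and 5.97 under chow and at 0.599, 1.09 and 11.3 under high-fat diet, and Slc17a7, the glutamate transporter of cortex and thalamus, reached 14.5 in high-fat 3 against 0.477 to 2.45 in the other 5 libraries. The pituitary hormone Gh stood at 39.6 in high-fat 3 and at 0.608 in high-fat 2. For each of these genes the range within the high-fat libraries was wider than the gap between the diet means.

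Histone gene Hist2h3c2 had the smallest p of all genes at ZT 4 (limma, unadjusted p = 0.00076), with 4.54, 5.23 and 3.44 under chow and 1.63, 2.95 and 0.248 under high-fat diet. It stands on 2 rows with identical values, so the naming rule passed over it, and it differed by -0.04 at the other times. The interferon-inducible GTPases Tgtp1 and Tgtp2, near-identical copies that can share reads, stood at 0.578 to 1.09 under chow and at 2.55 to 3.12 in high-fat 2 and 3, with 0.669 and 0.896 in high-fat 1. These genes were chosen after their values were seen.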
